A study of Homo sapiens with 6 samples.

Results

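The positions described here carried T in a substantial share of reads of the input libraries of Nm-mut-seq, in which no mutation at 2′-O-methylated nucleotides (Nm) is intended. They were chosen by their read counts: a depth of at least 10, at least 3 reads with T and a mutation ratio (reads with T over all reads at the position) of at least 10% in each of the 3 balanced dNTP libraries. Of 246881 listed positions, 115902 had a depth of at least 10 in each balanced library, and 682 of them (0.588%) met the rule. The balanced ratios therefore describe the selection and were not tested, and 479 positions had a mean ratio under 80% and 203 a mean of at least 80%.

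Nm-mut-seq was run on chromatin-associated RNA (caRNA) of untreated HepG2 cells, an established human line from a liver tumour with an abnormal chromosome number. In each of 3 biological replicates the ligated RNA was divided between a reverse transcription with imbalanced dNTP (1 mM dATP with 2 µM of each other dNTP) and a balanced reaction with 1 mM of each dNTP, the input. All 6 libraries shared the removal of RNA shorter than 200 nt, ribosomal RNA depletion and single reads of 100 bases. Only positions whose reference base is G, A or C are listed, since a U already reads as T.

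Over the listed positions the summed depth ranged from 22974020 to 34367262 in the balanced and from 17063930 to 22485865 in the imbalanced libraries. Of 10 liver markers 9 had listed balanced positions and FGB had none, while none of 5 markers of blood, connective tissue, endothelial and glial cells had any.

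A reverse transcriptase copies RNA into cDNA, and a T at a G, A or C of the reference means that the enzyme placed an A opposite that base or that the template differed from the reference. Several kinds of template are known to read this way. Base methylations on the pairing face of adenine or guanine, common in tRNA and in some rRNA, are read through with mixed misincorporation, a sequence difference between the cells and the reference gives one alternative base, and near-identical gene copies can lend their reads to each other.

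The windows that carry the main patterns are shown 5′ to 3′ on the transcribed strand of hg38, 10 bases on each side, with the counted base in capitals. Mitochondrial tRNA and rRNA windows come first, since each base lies at a set place of the tRNA.
MT-TF, base 9 from the 5′ end, chrM:575-595, plus strand: cagtttatgtAgcttacctcc
MT-TF, base 38, chrM:604-624, plus strand: atacactgaaAatgtttagac
MT-TV, base 9, chrM:1600-1620, plus strand: accagagtgtAgcttaacaca
MT-TL1, base 9, chrM:3228-3248, plus strand: ttgttaagatGgcagagcccg
MT-TL1, base 60, chrM:3279-3299, plus strand: cagaggttcaAttcctcttct
MT-TP, base 9, chrM:16005-16025, minus strand: aacagagaatAgtttaaatta
MT-TP, base 35, chrM:15979-15999, minus strand: ttagctttggGtgctaatggt
MT-RNR2, base 947, chrM:2607-2627, plus strand: tgttccttaaAtagggacctg

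Nuclear tRNA windows are shown for the shared sequence gttcnA before the counted A and for bases outside it.
TRR-CCG2-1, base 58, chr17:68019902-68019922, minus strand: tgtgggttcgAgtcccatctg
TRK-CTT2-2, base 58, chr5:181207802-181207822, plus strand: cgtgggttcgAgccccacgtt
TRK-TTT3-5, base 58, chr17:8119202-8119222, plus strand: ccagggttcaAgtccctgttc
TRC-GCA4-1, base 57, chr17:38869297-38869317, minus strand: ccctggttcaAatccgggtgc
TRA-AGC3-1, base 57, chr6:28607202-28607222, plus strand: cccgggttcaAtccccggcac
TRD-GTC1-1, base 9, chr12:98503501-98503521, plus strand: actcctcgttAgtatagtggt
TRL-TAG3-1, base 27, chr16:22195756-22195776, minus strand: ggtctaaggcGctggatttag
TRR-CCG2-1, base 37, chr17:68019923-68019943, minus strand: tcagcctccgGagctggggat

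Small nuclear and nucleolar RNA windows are shown because near-identical copies share them or because the base lies at the start of the RNA.
SNORD3A (U3), chr17:19188122-19188142, plus strand: agcgtgaagcCggctttctgg
SNORD3A (U3), chr17:19188129-19188149, plus strand: agccggctttCtggcgttgct
SNORD3C (U3), chr17:19190119-19190139, minus strand: aacgtgaagcCggctttctgg
RNVU1-31 (variant U1), chr1:145465682-145465702, minus strand: gtgctgacccCtgcgatttcc
RNU5E-6P (U5E pseudogene), chr1:44819982-44820002, minus strand: cgaatatactCgggtttctct
SNORD10 in EIF4A1, 2 nt before the gene, chr17:7576799-7576819, plus strand: gggggaagagCtgctctgtga
RMRP, 4 nt before the gene, chr9:35658011-35658031, minus strand: aagctgaggaCgtggttcgtg
SNORA73B in SNHG3, 3 nt before the gene, chr1:28508546-28508566, plus strand: actaatgagcAttccaacgtg

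Long RNA windows are shown for some of the other positions described below.
MALAT1, chr11:65504351-65504371, plus strand: gacttcaggtCtgtctgttct
NEAT1, chr11:65444641-65444661, plus strand: tgctgtggacCgtggatcctg
NEAT1, chr11:65422898-65422918, plus strand: tagatgagacGagggggcggg
APOB, chr2:21009313-21009333, minus strand: tccgagagacCctagaagata
APOB, chr2:21041018-21041038, minus strand: agccagtgcaCcctgaaagag
ALB, chr4:73419512-73419532, plus strand: ttgttgagctCgtgaaacaca
FN1, chr2:215435749-215435769, minus strand: ctggccgtccAgtgcctgggg
FASN, chr17:82097040-82097060, minus strand: gccctggtggCtcttgggctg

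The mutation ratios fell into a broad middle and a separate top. The counts per 10-point interval were 29 from 10% to 20%, 55 from 20% to 30%, 78 from 30% to 40%, 103 from 40% to 50%, 89 from 50% to 60%, 84 from 60% to 70% and 41 from 70% to 80%. Only 17 positions lay from 80% to 90% and 186 from 90% to 100%, of which 137 had T in every read of all 3 libraries. Under 80% the median SD between the 3 libraries was 8.90 points, and the binomial SD at the same depths had a median of 11.4 points. The rule's minimums in each library trim the spread, and an SD of 3 values tends to be low. The lower value therefore does not show agreement beyond counting error. The median of the lowest depth was 13.5 reads, which limits the precision of most of these ratios.

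**Figure D1:**
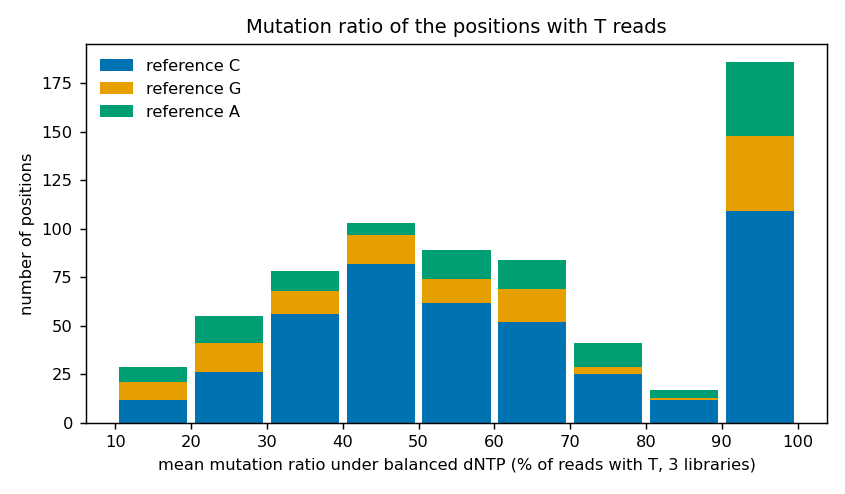
Number of positions per 10-point interval of the mean mutation ratio over the 3 balanced dNTP libraries, stacked by reference base. The intervals from 30% to 70% and the interval from 90% to 100%, with 186 positions, hold most of the 682 positions, and 17 lie from 80% to 90%.

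At the rule's lower edge, with at least 50 reads in each library, a 45S-like C at position 175100 of the contig chr22_KI270733v1_random had a lowest ratio of 10.7% and a MIR663AHG position (chr20:26208696) 10.9%. Just outside, an rDNA G at chr21:8252769 had a lowest ratio of 9.41% and a PMF1 intronic A at chr1:156216434 had 9.52%. Around the 80% boundary, at the same depth, FN1 at chr2:215378194 (80.2% ± 6.21, SD, n = 3) and MT-CO1 at chrM:6473 (84.7% ± 2.25) lay above it, and FN1 at chr2:215435759 (72.1% ± 5.14) and RNU6-761P at chr6:42018443 (69.6% ± 0.861) below it.

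Cytosine was the commonest reference base. C made up 63.9% of the 682 positions (436; Wilson 95% interval 60.3 to 67.4), against 31.9% of the 115902 listed positions of that depth. G made up 18.2% (124 positions) against 38.1%, and A 17.9% (122) against 30%. The shares were near each other in the lower class (65.8% C) and in the upper class (59.6% C). Such intervals cover counting error only, and reads had been collapsed by molecular identifiers before counting.

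The C positions often preceded a G. Of 436 C positions 177 (40.6%, 36.1 to 45.3) were followed by G, against 11.5% of the 36996 listed C positions at the same depth. By gene class alone, before the groups of structured RNA described next were set apart, the share in exons of protein-coding genes was 57.3% (67 of 117) against 13.0%, and in introns 34.4% (75 of 218) against 6.14%. Other lncRNAs gave 37.8% (14 of 37) against 18.8%, and positions outside genes 27.0% (10 of 37) against 20.3%. The intervals of the exonic and intronic shares lay above the shares over all listed C positions, and the interval outside genes included its own.

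By place in the genome, 314 positions lay in introns and 159 in exons of protein-coding genes, 45 in lncRNAs, 5 in pseudogenes and 46 outside genes, which is 83.4% of the 682. By gene class alone, introns held 47.4% of the members against 35.6% of all listed positions at this depth, and exons 24.3% against 29.9%. snoRNA and scaRNA genes held 1.91% against 6.66%, and MALAT1 and NEAT1 0.587% against 12.6%. The exonic positions comprised 81 in coding sequence, 19 in 5′ UTRs and 18 in 3′ UTRs. Another 41 lay in exon parts outside coding sequence but between the outermost coding bases of the gene. The remainder were 40 positions with a match to 45S pre-rRNA, 22 within 10 nt of the 5′ end of a small RNA gene, 20 in nuclear tRNA genes, 15 inside small RNA genes, 13 on the mitochondrial genome and 3 on other contigs. Of the 15 inside small RNA genes, 1 (ENSG00000279602, chr17:43360036) was placed there by default, in a gene not annotated as snRNA, snoRNA or scaRNA. These groups of structured RNA were formed after their values were seen. Their median ratios differed, at 21.9% at 5′ ends of small RNA genes, 25.4% in mitochondrial tRNA, 33.5% at 45S matches, 51.6% inside small RNA genes and 66.3% in nuclear tRNA, against 61.3% in the protein-coding, lncRNA, pseudogene and intergenic group. At low depth 3 reads with T are already a large share, so the rule itself sets how low a ratio can be, and the median lowest depth was 13 reads in the latter group against 25.5 at 5′ ends and 28 at 45S matches.

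Most positions were also listed under imbalanced dNTP. The imbalanced table held 431 of 682 (63.2%, 59.5 to 66.7), against 29.6% of all balanced positions at the same depth. Listing goes with T reads as well as with depth. Over all these balanced positions the lowest mean ratio was 0.00411% and the median 1.23%, against a median of 58.2% at members. The rule thus favours members being listed again, so the contrast was partly set by the selection. Listing moved with depth, at 47.2% of the members with a lowest depth under 15, 90.3% with at least 20 and 12 of 12 with at least 100, and the corresponding shares over all positions were 4.24%, 52.9% and 90.7%. Of the 251 unlisted members the median lowest depth was 12 reads. Only 4 unlisted members had at least 50 reads, namely EIF4A1 (chr17:7576808), MIR663AHG (chr20:26208696), RNU6-761P (chr6:42018443) and MT-TF (chrM:614).

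At the 312 listed members under 80% the median was 47.9% balanced and 44.6% imbalanced, with a median difference of -3.36 points and 90% of differences between -21.6 and 13.5 points. At the 119 listed members of at least 80% both medians were 100%. Pooled over replicates, the 95% intervals of the balanced and imbalanced ratio overlapped at 417 of 431 members (96.8%). They overlapped at 102 of 104 members in protein-coding exons and 183 of 184 in introns. The counts were 24 of 29 with a 45S match, 8 of 11 inside small RNA genes, 4 of 5 in mitochondrial tRNA and 3 of 4 at other mitochondrial positions. Over all members the median lowest depth was 14 in exons and 12 in introns, against 28, 33, 32 and 35 in the latter groups in that order. Deeper positions have narrower intervals, so the counts do not compare the groups. The listed members had a median lowest depth of 17 reads, at which intervals are wide, so an overlap does not show equal ratios. Overlap was not counted over all listed positions, so the counts have no background beside them. No member exceeded 3 times its input in every replicate, a bound that a ratio above 33.3% cannot pass. Of 78 listed members with T in all balanced reads, 57 also had T in all imbalanced reads and the lowest imbalanced mean was 93.3%.

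**Figure D2:**
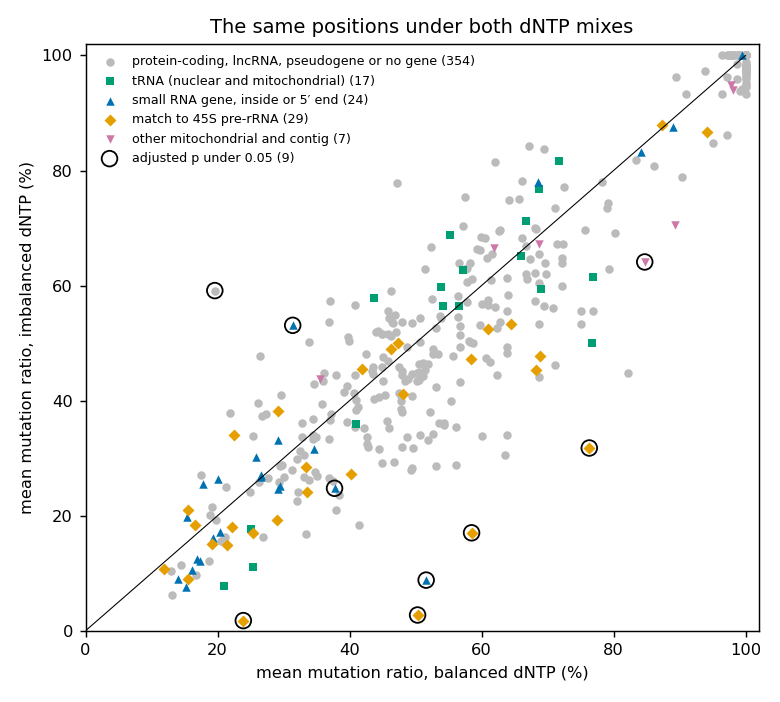
Mean mutation ratio (%) under balanced (x) and imbalanced (y) dNTP for the 431 positions listed in both tables, coloured by RNA group; the line marks equality and circles mark the 9 positions with an adjusted p under 0.05. Most points lie along the line, and 7 circled points lie below it.

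Summed over the 167 members that reached 10 reads in each of the 6 libraries, the share of reads with T was 50.1% ± 0.289 (SD, n = 3) in balanced and 44.9% ± 0.726 in imbalanced libraries. The difference was -5.20 points, and the imbalanced share was the lower in 3 of 3 pairs. The balanced reads also chose the members, so this difference is a description and no p is given. SNORD3A held a large part of these reads, and the mean of the ratios per position gave 55.2% and 51.7%.

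By edgeR's quasi-likelihood test with Benjamini-Hochberg adjustment over 32284 positions, 2 of 167 tested members were higher and 7 lower under imbalanced dNTP. Over all positions tested 73.9% were called higher and 0.0558% lower, and because the balanced values chose the members nothing is read from the members' counts. For the same reason the values of called members are given as descriptions, with no p.

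The 2 members called higher were a 3′ UTR C of TMEM107 (chr17:8173452) and a U3 copy. The small RNA gene with the nearest start to the former was SNORD118, the U8 snoRNA, and the C lay outside its annotated bounds. Whether the reads there come from TMEM107 or from an RNA of SNORD118 that extends past those bounds was not tested. At TMEM107 the balanced libraries read 10.5%, 16.7% and 31.6% and the imbalanced 58.6%, 66% and 52.8% (log2 change 2.76). The groups did not overlap there, and other mismatches made up 43.7% of balanced reads. The U3 copy SNORD3D at chr17:19112520 read 26.9%, 17.3% and 50% balanced and 39.5%, 59.4% and 60.4% imbalanced, which overlap. Leaving out replicate 1 or replicate 2 left 0 members called higher, and leaving out replicate 3 left 1.

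Among the 7 called lower, the variant U1 gene RNVU1-31 read 52.2%, 52.6% and 50% balanced and 14.9%, 11.5% and 0% imbalanced (log2 change -3.30). The U5E pseudogene RNU5E-6P, 5 nt after its start, read 35.6%, 39.5% and 38.1% and 22.4%, 25% and 26.9%. Both groups of libraries stood apart at these snRNA positions, with the deeper reads at RNU5E-6P (770, 397 and 352 balanced). A 45S-like pair of cytosines 4 nt apart read 47.4%, 61.9% and 41.7% balanced and 3.07%, 1.46% and 3.70% imbalanced at chr21:8988481, and 19%, 35.3% and 17.4% and 1.27%, 2.33% and 1.70% at chr21:8988477. The imbalanced libraries were deeper than the balanced ones at both, with 163, 137 and 189 against 57, 21 and 36 reads at the former. The others were a 45S-like C at chr20:30487108 (58.5% balanced and 17% imbalanced), a 45S-like C in SLCO5A1 at chr8:69690112 (76.3% and 31.8%) and MT-CO1, described below.

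Transfer RNAs are folded adapters of translation that carry many base methylations, several of them on the face that pairs. Base numbers are counted on the strand of the reads, since the RefSeq table used has no strand. Of 20 positions in 18 nuclear tRNA genes of RefSeq, 14 had reference A, 5 G and 1 C. Of these, 13 were the A at base 16 from the 3′ end of the gene, in the T loop, where adenosine is methylated at its pairing face in many tRNAs. MT-TL1 base 60 was the same base of a mitochondrial tRNA, and all 14 stood in GTTCNA. The A of this motif made up 131 of 34788 listed A positions at this depth (0.377%) and 14 of 122 A members (11.5%), all in tRNA. The search used the transcribed strand only.

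The T-loop positions had ratios between 20.9% and 77.0%, with a median of 68.8%. At the deepest, TRK-CTT2-2 (chr5:181207812), the balanced libraries read 52.7%, 76.9% and 77.3% and the imbalanced 62.2%, 64.3% and 51.9%. TRR-CCG2-1 (chr17:68019912) read 60%, 75.6% and 79.4% balanced and 80.6%, 84.6% and 80% imbalanced, with the imbalanced libraries all at or above 80%. The lowest mean was at TRA-AGC3-1 (chr6:28607212) with 21.6%, 27.3% and 13.8%, which overlaps the lowest library of TRL-TAG3-1 (47.1%, 61.1% and 23.1%). Other mismatches, reads with neither the reference base nor T, made up a median of 16.7% of reads at these positions and up to 38.2%, at TRR-ACG2-1 (chr3:45689014).

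Other tRNA positions lay at bases that are also known for methylation in some tRNAs, between the acceptor and D stems, before the anticodon stem and beside the anticodon. TRD-GTC1-1 base 9 (chr12:98503511) read 100%, 84.2% and 100%, the highest of the nuclear tRNA positions. At base 27 the G of TRL-TAG3-1 (chr16:22195766) read 52.9%, 58.3% and 54.5% and that of TRL-TAG2-1 (chr14:20625396), with the same window, 70.6%, 80% and 50%. Base 26 of TRV-TAC2-1 read 15%, 30% and 30%. The bases 3′ of the anticodon read 22.9%, 23.5% and 29% at base 37 of TRR-CCG2-1 and 17.9%, 16.7% and 40% at base 36 of TRP-TGG2-1, near the values of TRV-TAC2-1. The only C, in the selenocysteine tRNA TRU-TCA1-1 within ERCC1 (chr19:45478636), read 50%, 50% and 61.5% and had no other mismatch. Across the tRNA group 17 of 20 positions had at least 5% of other mismatches.

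**Figure D3:**
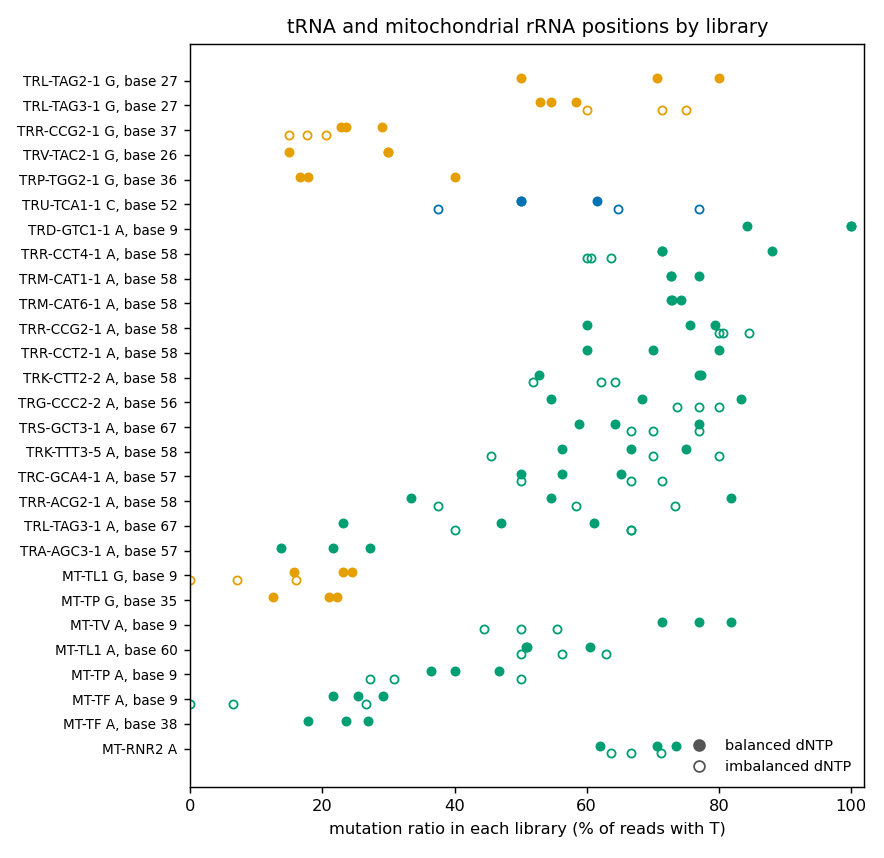
Mutation ratio (%) in each library at the 27 tRNA positions and the mitochondrial rRNA position, with filled points for the 3 balanced and open points for the 3 imbalanced libraries; green, A; orange, G; blue, C. T-loop adenosines lie mostly between 50% and 80% under both mixes, and the libraries at base 9 of MT-TL1 and MT-TF lie under 30%.

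The mitochondrial genome held 13 positions. The 7 in tRNAs had reference A or G, and 4 of them were base 9 from the 5′ end, a base that mitochondrial tRNAs carry methylated on its pairing face. MT-TV base 9 read 81.8%, 71.4% and 76.9% balanced and 55.6%, 50% and 44.4% imbalanced, and MT-TP base 9 46.7%, 40% and 36.4% and 27.3%, 50% and 30.8%. MT-TF base 9 read 29.1%, 25.5% and 21.7% against 6.45%, 0% and 26.7%, and MT-TL1 base 9, a G, 24.4%, 15.6% and 23.1% against 0%, 7.14% and 16%. The imbalanced means were lower at all 4, but the libraries of the mixes overlapped at MT-TP, MT-TF and MT-TL1. Balanced reads chose these members, so nothing is read from that direction. MT-TL1 base 60 read 50.9%, 60.5% and 50.9% and 62.9%, 56.2% and 50%, which overlap. Beside the anticodon, MT-TF base 38 read 26.9%, 17.9% and 23.6% and MT-TP base 35 22.2%, 12.5% and 21.1%, neither listed under imbalanced dNTP.

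In the mitochondrial 16S rRNA, MT-RNR2, the A at base 947 (chrM:2617) read 73.5%, 61.9% and 70.6% balanced and 66.7%, 63.6% and 71.2% imbalanced at balanced depths of 245, 176 and 262. Human 16S rRNA is known to hold a methylated adenosine there, and other mismatches made up 5.42% of balanced reads. The other 5 mitochondrial positions were C, all above 80% and none with another mismatch. On the plus strand they were MT-CO1 (chrM:6473), with 82.6%, 87.1% and 84.6% balanced and 70.6%, 63.2% and 58.5% imbalanced (log2 change -1.63), MT-ND4 (chrM:11177), with 85.4%, 88.9% and 93.5% and 84%, 50% and 77.4%, and MT-CYB (chrM:15535), with 89.5%, 80% and 100%. The antisense positions at chrM:10373 and chrM:13590 read 98.1% and 97.7% balanced. At MT-CO1 the groups did not overlap.

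The U3 snoRNA, needed for the first cleavages of pre-rRNA, gave the deepest positions. In SNORD3A the C at chr17:19188132 read 26.5%, 25.6% and 27.8% balanced and 26.7%, 29.8% and 25% imbalanced at balanced depths of 16269, 10216 and 7327. The C 7 nt further on (chr17:19188139) read 89%, 89.6% and 88.6% and 88.6%, 87.7% and 86.5%. Both ratios repeated closely over the libraries, and other mismatches made up 0.163% and 0.0991% of balanced reads. The same bases of other U3 genes read 29.2% and 84.2% in SNORD3C, 17.4% and 61% in SNORD3B-1 and 31.4% and 68.6% in SNORD3D. Libraries of SNORD3D scattered (60.8%, 54% and 90.9% at the latter base), which was wider than in SNORD3A. In total 22 members shared their 21-nt window with another member, in 7 sequences.

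Other small RNA genes held fewer positions. SNORA38 (chr6:31623121) read 29.2%, 31.1% and 27.3% balanced and 23.5%, 30.4% and 20% imbalanced. SNORA20 (chr6:159780263), a G, read 98.6%, 100% and 100% and 100%, 100% and 100%, the highest of the small RNA positions. RNU6-761P (chr6:42018443) read 68.6%, 70.2% and 70% with 8.45% of other mismatches.

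A separate group lay at the 5′ ends of small RNA genes. Within 10 nt of such an end there were 22 positions at 17 genes, 19 of them before the annotated start and 17 between 1 and 5 nt before it. This was 3.23% of the 682 positions, against 0.807% of all listed positions at the same depth. All lay under 80%, with a median ratio of 21.9%, and 21 of 22 had at least 5% of other mismatches (median 20.8%). RNU5E-6P was the exception, with none.

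Before SNORD10, a snoRNA in an intron of EIF4A1, the C at chr17:7576809 read 20.8%, 16.9% and 20.4% balanced and 13.6%, 19% and 15.6% imbalanced, and other mismatches made up 31% of balanced reads. The G beside it read 15.1%, 21.7% and 12.8%. Before RMRP, the RNA of RNase MRP, a run of C, A and G read 13.6%, 17.1% and 17.5%, 24.1%, 13.2% and 23% and 11%, 14.3% and 16.7% at chr9:35658021, chr9:35658022 and chr9:35658023. Before SNORA73B in SNHG3 the A read 27.7%, 15.7% and 17.9% and before SNORD14C in HSPA8 13.1%, 18.9% and 14.3%. At RMRP the libraries of all 3 adjoining bases overlapped, although the reference bases differ. Where the reads begin was not tested. Positions of the same kind further from a GENCODE start included the A of PMF1 (chr1:156216439), with 18.9%, 11.8% and 12.7% and 13.2% of other mismatches.

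Ribosomal RNA genes occur in many near-identical copies, of which hg38 holds some on chromosome 21 and on contigs. The 40 positions with a match to 45S pre-rRNA had a median ratio of 33.5% and a range of 11.9% to 94.1%, and 18 were G. One window with a G recurred at 4 copies, where the balanced means were 68.8% (chr21:8206627), 29.2% (chr21:8250836), 46.2% (chr21:8389674) and 64.4% on a random contig of chromosome 22. The copies had the same 21 bases and different ratios, with lowest depths of 39, 128, 70 and 35. At chr21:8391902, within the lncRNA ENSG00000280441, a G read 28.1%, 23.2% and 35.6% balanced and 11.8%, 21.1% and 25% imbalanced. A pair in the RefSeq gene LOC102723688, outside any GENCODE gene, at chr22:11254105 and chr22:11254111 read 87.4% and 94.1%. Of the 40, 17 had at least 5% of other mismatches.

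No read with another mismatch was present at 523 of 682 positions (76.7%), and 72 (10.6%) had at least 5%. In protein-coding, lncRNA, pseudogene and intergenic positions 497 of 569 had none and 11 had at least 5%. At least 5% stood at 21 of 22 positions at 5′ ends of small RNA genes, 17 of 20 in nuclear tRNA, 17 of 40 at 45S matches, 3 of 15 inside small RNA genes and 2 of 7 in mitochondrial tRNA, and the other 5 mitochondrial positions had none. Among the 115902 listed positions of sufficient depth, 64.9% had none and 1.55% had at least 5%. The rule did not use these reads, except that they lower the room left for T.

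**Figure D4:**
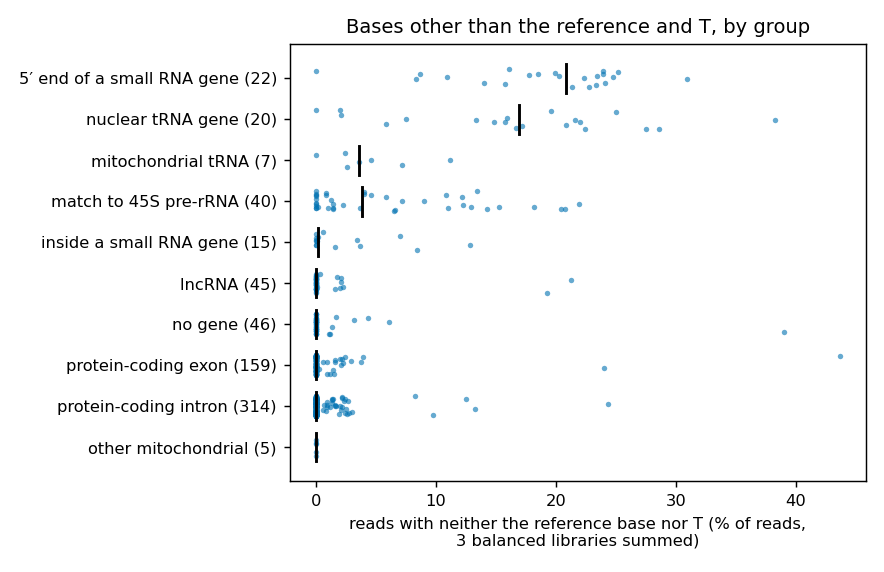
Reads with neither the reference base nor T (% of reads summed over the 3 balanced libraries) at each position, by group; the bar marks the median and the number of positions is in brackets. Positions at 5′ ends of small RNA genes (median 20.8%) and in nuclear tRNA genes (median 16.9%) stand apart from exons and introns (medians 0).

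Members under 80% were assigned to the nearest of 33.3%, 50% and 66.7% by their pooled balanced ratio, as a description. The chromosome counts cover only the 378 such members in protein-coding genes, lncRNAs, pseudogenes or no gene. They leave out the groups of structured RNA, the mitochondrial genome and the contigs. Every ratio gets a level in this way, so the counts do not show that ratios gather there, and chromosomes were not tested against each other. On chromosome 2, 26 of 96 were nearest 33.3%, 14 nearest 50% and 56 nearest 66.7%. On chromosome 17 the counts were 21, 6 and 10 of 37. On chromosome 3 they were 10, 22 and 7 of 39, on chromosome 20 7, 21 and 6 of 34, and on chromosome 12 6, 15 and 2 of 23. The imbalanced libraries, which the rule did not use but which hold the same RNA, gave 18, 16 and 31 on chromosome 2, 20, 6 and 3 on chromosome 17, 6, 18 and 3 on chromosome 3, 10, 12 and 4 on chromosome 20 and 5, 8 and 2 on chromosome 12. Other chromosomes differed between the mixes. Chromosome 1 had 9, 12 and 0 of 21 balanced and 11, 1 and 0 of 12 imbalanced, and chromosome 8 had 1, 11 and 2 of 14 and 3, 0 and 0 of 3. Chromosome copy number was not measured here, and its part in these levels was not tested.

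Genes with many positions varied in their spread. FN1, fibronectin, held 30 positions on chromosome 2 (215360440 to 215436073), 4 of at least 80% and 26 below with a median of 67.1%. EML4, a microtubule-associated protein, held 13 with a median of 72.2%, 12 of them nearest 66.7%. Under imbalanced dNTP, 5 of 9 listed EML4 positions were nearest 66.7% and 3 nearest 50%, with a median of 58.8%. In FN1 the imbalanced counts under 80% were 12 and 4 of 21, with a median of 61.9%. The lncRNA ENSG00000227088, also on chromosome 2, held 15, of which 13 lay under 80% with a median of 63.2%. ACSL3, a long-chain acyl-CoA synthetase, held 11 and FMNL2, a formin, 14, with medians under 80% of 61.0% and 52.5%. The balanced medians of these 5 chromosome 2 genes thus ran from 52.5% to 72.2%. Under imbalanced dNTP the medians under 80% were 77.3% in FMNL2 (3 listed positions), 44.2% in ACSL3 (6) and 57.9% in ENSG00000227088 (10). The levels of FMNL2 and ACSL3 thus did not repeat between the mixes.

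On chromosome 3, TGFBR2, the type 2 receptor of TGF-beta, held 19 positions, of which 17 under 80% had a median of 50.9%. FNDC3B, a membrane protein with fibronectin domains, held the most, 34, with 20 of at least 80% and a median of 44.9% among the other 14. A2M, the protease inhibitor alpha-2-macroglobulin on chromosome 12, held 9, of which 7 under 80% had a median of 47.4%, and COL27A1, a collagen on chromosome 9, held 8, of which 7 had 49.4%. FREM1, also on chromosome 9, held 10, of which 6 under 80% had a median of 40.4%, with 4 nearest 33.3%. In TGFBR2 11 of 17, in A2M 5 of 7 and in COL27A1 7 of 7 positions were nearest 50%, and in FNDC3B 7 of 14, with 6 nearest 33.3%. The imbalanced counts nearest 50% were 10 of 14 in TGFBR2, 5 of 6 in A2M, 5 of 6 in COL27A1 and 5 of 8 in FNDC3B.

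On chromosome 17, FASN, fatty acid synthase, held 10 positions, 8 nearest 33.3% and 2 nearest 66.7%. Its intronic C at chr17:82097050 read 69.4%, 65.3% and 70.2% balanced and 61.1%, 70% and 78.3% imbalanced, and a coding C at chr17:82083590 25.6%, 31.2% and 32.4% and 31.8%, 32.1% and 22.6%. HLF, a transcription factor of the PAR bZIP family, held 9, with 7 nearest 33.3%. In GMDS, an enzyme of GDP-fucose synthesis on chromosome 6, 11 of 13 positions lay under 80% with 4 nearest 33.3%, 4 nearest 50% and 3 nearest 66.7%. Under imbalanced dNTP, 5 of 6 listed GMDS positions were nearest 50% and 1 nearest 66.7%. The imbalanced counts nearest 33.3% were 7 of 9 in FASN and 7 of 9 in HLF. Of the 682 positions 12.9% lay in no gene on their strand. The others lay in 235 genes, 186 of them protein-coding, and 137 genes held 1 position.

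**Figure D5:**
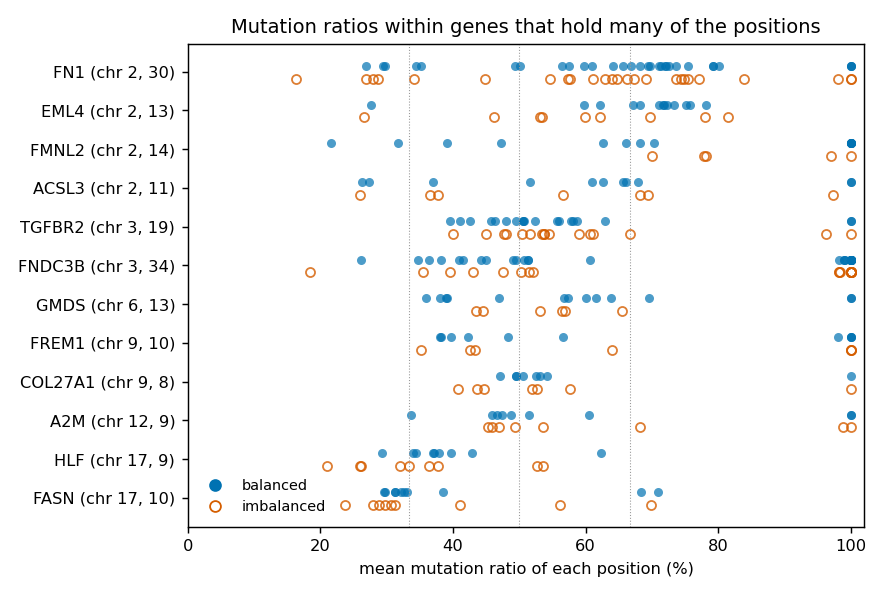
Mean mutation ratio (%) of every position in 12 genes that held 8 or more, with filled blue points for balanced and open orange points for imbalanced dNTP; dotted lines mark 33.3%, 50% and 66.7%, and brackets give the chromosome and the number of positions. Under balanced dNTP, FASN and HLF lie mostly near 33.3%, TGFBR2, A2M and COL27A1 near 50%, and EML4 and FN1 near 66.7%, while FMNL2, ACSL3, GMDS and FNDC3B spread over several levels. The imbalanced points of EML4 lie lower, with a median of 58.8%.

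The deepest positions in long RNAs repeated closely. MALAT1, a nuclear speckle RNA, read 46.6%, 48.9% and 48.6% balanced and 45.7%, 44.3% and 45.3% imbalanced at chr11:65504361, with at least 1222 balanced reads. NEAT1, the scaffold of paraspeckles, read 43.2%, 42.3% and 45% and 49.6%, 42.7% and 45% at chr11:65444651, 46.1%, 48% and 41.8% and 40.8%, 39.5% and 42.6% at chr11:65438546, and 62.8%, 62.3% and 61.1% and 52%, 57.7% and 58.9% at chr11:65422908.

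Of the 10 liver markers 5 held members. APOA1, APOA2, TTR and TF had 46, 39, 3 and 402 listed positions and 0 members. APOB, the structural protein of low-density lipoprotein, had 6 members among 3276 listed positions, of which 3 had T in every balanced read, including the coding C at chr2:21009323 with depths of 80, 52 and 81 and 100%, 100% and 100% under imbalanced dNTP. Its coding C at chr2:21041028 read 38.3%, 32.1% and 34.5% and 35.6%, 28.9% and 36.4%. ALB, serum albumin, had 1 position, a coding C at chr4:73419522 with 48.9%, 43.4% and 29.8% balanced and 41%, 52.2% and 31% imbalanced. SERPINA1, which encodes alpha-1-antitrypsin, had 2 intronic positions, both at 100% in all balanced libraries. AFP, alpha-fetoprotein, had 3, with means of 63.9%, 68.7% and 41.3%.

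Among positions of at least 80%, the coding A of SLC38A2, an amino acid transporter, at chr12:46365234 read 100% in all 6 libraries. RBM39, a splicing factor, read 100% in all 6 at a C of an exon part outside coding sequence (chr20:35740352). The lncRNA SNHG14 (chr15:25086393), a G, read 100%, 100% and 98.3% balanced and 95%, 87.5% and 100% imbalanced. The 5′ UTR A of FGL1, a liver-secreted fibrinogen-like protein, at chr8:17910175 read 100%, 97.9% and 98% and 100%, 95.5% and 100%. These ratios left little room for the reference base in either mix.

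At an identity of at least 85% over at least 30 nt, 340 of 682 windows, of 50 nt on each side of the position, (49.9%) had another hg38 locus, and 100 (14.7%, 12.2 to 17.5) had a locus with T at the aligned base. At the closest other locus T stood in 36 (5.28%). An intronic A of A2M (chr12:9102438) had 4860 other loci, 4195 of them with T, so the loci are not only near-identical copies. Among 705 positions that met the depth and read minimums but not the share minimum, 539 (76.5%) had another locus, 62 (8.79%) had T at some other locus and 5 (0.709%) at the closest one. The shares of positions with T at some locus were 14.2% under 80% and 15.8% at or above it. An alternate contig of hg38 aligned to 88 members, and it held T in 32 of them. The 705 positions were not matched to the members by RNA class, and the part of copies in any single ratio was not tested.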

How the data were processed

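The authors trimmed adapters (Cutadapt), collapsed molecular identifiers (BBMap), mapped reads to hg38 (TopHat2) and counted bases (JACUSA). The deposited values are raw counts of reads with each base, by position and strand, without normalization. Every listed position had 5 or more reads in each library of its table. The deposited score was not used.

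Members were taken by the rule above, and they, the gene lists and the groups were chosen with earlier results of these data known. Genes came from GENCODE release 44 on the same strand, tRNA genes from RefSeq (GRCh38.p14, no strand), and sequences from hg38. Windows of 50 nt on each side were aligned with blastn 2.17.0 (word size 16). Reads with T and other reads were tested in edgeR 4.0.16 (R 4.3.3) in a model with library terms, a replicate block for the mutated share and a term for imbalanced dNTP, over the positions that reached 10 reads in each of the 6 libraries. DESeq2 1.42.0 with size factors from the depths was an alternative. On simulated data with 50 changed positions of each fold among 32284, edgeR recovered 46 at 8-fold, 31 at 4-fold, 8 at 0.25-fold and 15 at 0.125-fold, with 0 unchanged positions called. Falls were found less often than rises there. The changed positions were drawn at random from all 32284, so recovery at the ratios of the members was not measured. Replicate numbers pair the libraries, since each pair came from one ligated RNA (correlation of log2 depth deviations 0.338 to 0.723 within pairs and -0.602 to 0.385 between other numbers). Shares have Wilson 95% intervals. Positions were named by depth, by reads with neither the reference base nor T, by place on the mitochondrial genome, at the edges of the rule and in the genes with most members. Python 3.11.15, scipy 1.17.1 and matplotlib 3.10.9 were used.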

Additional observations from a re-analysis of the deposited data

How the results depend on the processing

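The number of positions followed the depth required. It was 186 at a depth of at least 20 and 37 at 50, against 682, and the number of at least 80% was 47 and 5, against 203. Requiring only 2 of the 3 balanced libraries gave 753 to 1160 positions and 219 to 358 of at least 80%, the highest values without replicate 2, the shallowest. At a depth of at least 20 and of at least 50, C made up 58.1% and 51.4%, A 21.5% and 24.3% (G 24.3% at 50), and 90.3% and 89.2% were listed under imbalanced dNTP. Without a replicate, 49.1% to 60.2% were listed. Taking the gene with the nearest transcription start put 65.0% in protein-coding genes, against 72.1%.

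The share with T at another locus was 8.80% at 90% identity, 1.47% at 95%, 11% at a length of 50 nt and 6.01% at 80 nt, against 14.7%. Among the 705 positions under the share minimum it was 3.83%, 0.426%, 6.95% and 3.83% in that order, against 8.79%. The share of members with no other mismatch was 32.4% at a depth of at least 50, where more reads can show one. The summed difference between dNTP mixes stayed negative, at -3.58 points at a depth of at least 50, at -6.32 points without SNORD3A, an alternative chosen after seeing the data, and at -5.66 to -4.69 points without a replicate.

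Without the replicate block edgeR called 2 members higher and 8 lower, against 2 and 7 with the pairing. DESeq2 called 1 higher. At a depth of at least 50, 0 of 10 were higher and 2 lower (edgeR, 2 at an unadjusted p under 0.05). Without a replicate 0 to 1 were higher and 5 lower each time. RNU5E-6P was past the threshold in 8 of 9 fits (not by DESeq2), MT-CO1 in 6 of 9, SLCO5A1 in 7 of 8, TMEM107 in 6 of 8, the C at chr20:30487108 in 5 of 8 and SNORD3D in 4 of 8, while RNVU1-31 and both cytosines at chr21:8988477 and chr21:8988481 passed in 8 of 8. Each fit used the balanced values that chose the members, so these counts show dependence on settings and are no support for a change. The causes were not tested. Depth limits most ratios, since 369 members had a library with fewer than 15 reads.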
